A study of Mus musculus with 12 samples.

Results

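The collagen chain genes of the mouse were followed by RNA sequencing of whole liver from 12 female mice, 3 to 4 months old, in 4 groups of 3. Members were all rows whose gene name is Col, a type number, the letter a and a chain number, which gave 44 of the 41743 genes: 11 fibrillar chains, 9 chains of the basement membrane and 24 others. YAP1 KO mice, on C57BL/6, carried *Foxa3*-Cre, *Yap1* fl/fl and a ROSA-stop fl/fl-EYFP reporter, and WT (C57BL/6) mice were their littermates. YKTH mice (YAP1 KO TAZ Heterozygote), of a mixed C57BL/6-FVB background, lost both alleles of *Yap1* and 1 allele of *Wwtr1* through the same Cre, and WT (mixed) mice were their littermates. *Foxa3*-Cre acts in the foregut endoderm of the embryo, from which hepatocytes and bile duct cells arise, and *Yap1* was not measured by cell type here. YAP1 KO mice lack functional bile ducts, and the authors found no intrahepatic ducts in adult YKTH mice either. Levels were TPM (transcript abundance scaled to a library total of 1000000), which are corrected for gene length, so levels of different chains can be set side by side within a liver.

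Collagens are trimers of chains in which glycine recurs at regular steps of 3 residues, which lets the chains wind into a triple helix. Fibrillar collagens (types I, III, V and their relatives) have long unbroken helices that pack into fibrils. Type IV chains have helices with many interruptions and join into the sheet of the basement membrane, beaded type VI filaments lie between fibrils and cells, and fibril-associated collagens sit on the surface of fibrils. In the liver, stellate cells and portal fibroblasts are the known main sources of fibrillar collagen, which accumulates in fibrosis. Type XVIII collagen, the precursor of endostatin, is known to be made by hepatocytes.

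This division can be read in the genes. The following exons of GENCODE M21 (GRCm38), each wholly coding, are shown 5′ to 3′ on the coding strand, because they carry the repeat that separates the classes; capitals mark the glycine codons (GGN) that belong to a run of at least 5 such codons spaced 9 bases apart. The *Col1a1*, *Col1a2* and *Col3a1* exons are the first of 54 bases in their transcripts that begin with a glycine codon and keep the spacing throughout, and the *Col4a1* and *Col4a2* exons are the first of at most 120 bases in which a run ends and another begins.
Col1a1 exon 8, chr11:94939904-94939957, + strand: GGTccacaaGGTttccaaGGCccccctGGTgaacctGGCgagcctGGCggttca
Col1a2 exon 8, chr6:4515481-4515534, + strand: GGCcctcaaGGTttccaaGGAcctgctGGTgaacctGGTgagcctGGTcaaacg
Col3a1 exon 6, chr1:45325360-45325413, + strand: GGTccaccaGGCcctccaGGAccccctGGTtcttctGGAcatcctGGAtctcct
Col4a1 exon 9, chr8:11244486-11244569, - strand: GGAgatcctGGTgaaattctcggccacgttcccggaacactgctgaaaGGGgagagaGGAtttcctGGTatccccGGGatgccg
Col4a2 exon 12, chr8:11406813-11406854, + strand: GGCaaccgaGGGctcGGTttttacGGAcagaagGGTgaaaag

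In the 3 fibrillar exons the capitals recur every 9 bases from the first base to the last, and in both type IV exons the spacing breaks inside the exon. Over the whole coding sequence the longest unbroken run held 338 glycine repeats in *Col1a1*, 339 in *Col1a2* and 344 in *Col3a1*. It held 40 in *Col4a1* and 66 in *Col4a2*, whose repeats were split into 22 and 24 runs of at least 5, and 30 in *Col18a1*. Of the wholly coding exons, 85.7% in *Col1a1* and in *Col3a1* began with a glycine codon and kept the frame, against 22% in *Col4a1* and 20% in *Col4a2*.

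Chains were tested where a gene reached 1 TPM in at least 3 of the 12 livers, which 21 of the 44 did: 7 fibrillar, 5 of the basement membrane and 9 others. Of these, 14 were at or above 1 TPM in all 12 livers. *Col12a1* and *Col6a5* were under 1 TPM in every WT liver and passed only through YAP1 KO and YKTH livers, so a difference in them was built into the filter. *Col4a5* reached 1 TPM in 1 WT liver (1.02 TPM, mixed background) and in 6 livers of the models. It too met the limit of 3 livers only with livers of the models. Nearest to the limit, *Col6a5* reached 1 TPM in 3 livers (highest 1.84 TPM) and *Col8a1*, a network chain, in 2 (highest 1.35 TPM). The 23 chains under the filter were *Col2a1*, *Col11a1*, *Col11a2* and *Col24a1* among the fibrillar chains, *Col4a3*, *Col4a4*, *Col4a6* and *Col7a1* of the basement membrane, and *Col6a4*, *Col6a6*, *Col8a1*, *Col8a2*, *Col9a1*, *Col9a2*, *Col9a3*, *Col10a1*, *Col17a1*, *Col19a1*, *Col22a1*, *Col23a1*, *Col25a1*, *Col26a1* and *Col28a1*. None of them exceeded 1.35 TPM in any liver, and *Col9a1*, of cartilage, was listed at 0 in all 12.

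As a check of the labels, *Yap1* was between 1.67 and 3.72 TPM in YAP1 KO livers against 28.2 to 30.5 TPM in their littermates, and between 8.63 and 11.5 TPM in YKTH livers against 31 to 33.2 TPM. The fall was larger in YAP1 KO than in YKTH livers by 1.59 on the log2 scale (limma, adjusted p = 0.0371). *Wwtr1*, deleted on 1 allele in YKTH mice, was not lower there: it ran from 11.5 to 14.1 TPM in YKTH livers against 7.73 to 8.38 TPM in WT (mixed) livers (0.26 ± 0.1 SE, adjusted p = 0.0731), so these values do not check the heterozygous label. Between 14442 and 15047 genes were above 0 in a library. The number of reads behind the TPM is unknown. For each comparison TPM were divided by a scaling factor (1.075 to 1.219 in the livers of the models, 0.852 to 0.947 in their littermates), because without it the median gene lay 0.28 higher in YAP1 KO and 0.25 higher in YKTH livers on the log2 scale. After scaling it lay at -0.03 in both. TPM values, their sums and folds in mean TPM are given below before scaling, so they include this shift. Differences below are on the log2(scaled TPM + 1) scale, which understates the change of chains near or under 1 TPM, and come from limma with Benjamini-Hochberg adjustment over 12159 genes, two-sided.

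Most tested collagen chains were higher in YAP1 KO livers than in their littermates. Of the 21 chains, 16 rose (6 of 7 fibrillar, 4 of 5 of the basement membrane, 6 of 9 others) and 1 fell, where 18.7% of all tested genes rose and 17.3% fell. The median difference was 2.26 over the fibrillar chains, 1.33 over the basement membrane chains and 0.85 over the others, which is the value of *Col6a5*; without *Col12a1* and *Col6a5* the last was 1.01. Deposited TPM of the groups did not overlap, with YAP1 KO higher, for 18 of the 21 chains, against 47.2% of all tested genes, a share that includes the shift removed by scaling. These counts include *Col12a1* and *Col6a5*, without which 4 of the 7 other chains rose. They also include *Col4a5* among the basement membrane chains, as does the median of that class. In whole liver, more cells of a type and more RNA per cell cannot be told apart.

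In YKTH livers, 13 of the 21 chains rose against WT (mixed) livers (6 fibrillar, 3 of the basement membrane, 4 others) and none fell by limma (0 called), where 19.2% of all genes rose and 18.4% fell. At an unadjusted p under 0.05, 15 of the 21 differed, among them *Col20a1* with a lower level, against 47.8% of all genes. Median differences were 1.93, 1.04 and 0.58 over the 3 classes in the same order, the last again that of *Col6a5* and 0.82 without it and *Col12a1*. The value of 1.04 is that of *Col4a5*, which met the filter only with livers of the models. TPM were higher without overlap for 17 of the 21 chains, against 44.4% of all genes. All 13 were also among the 16 that rose in YAP1 KO livers, with which YKTH livers share no control mouse.

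**Figure D1:**
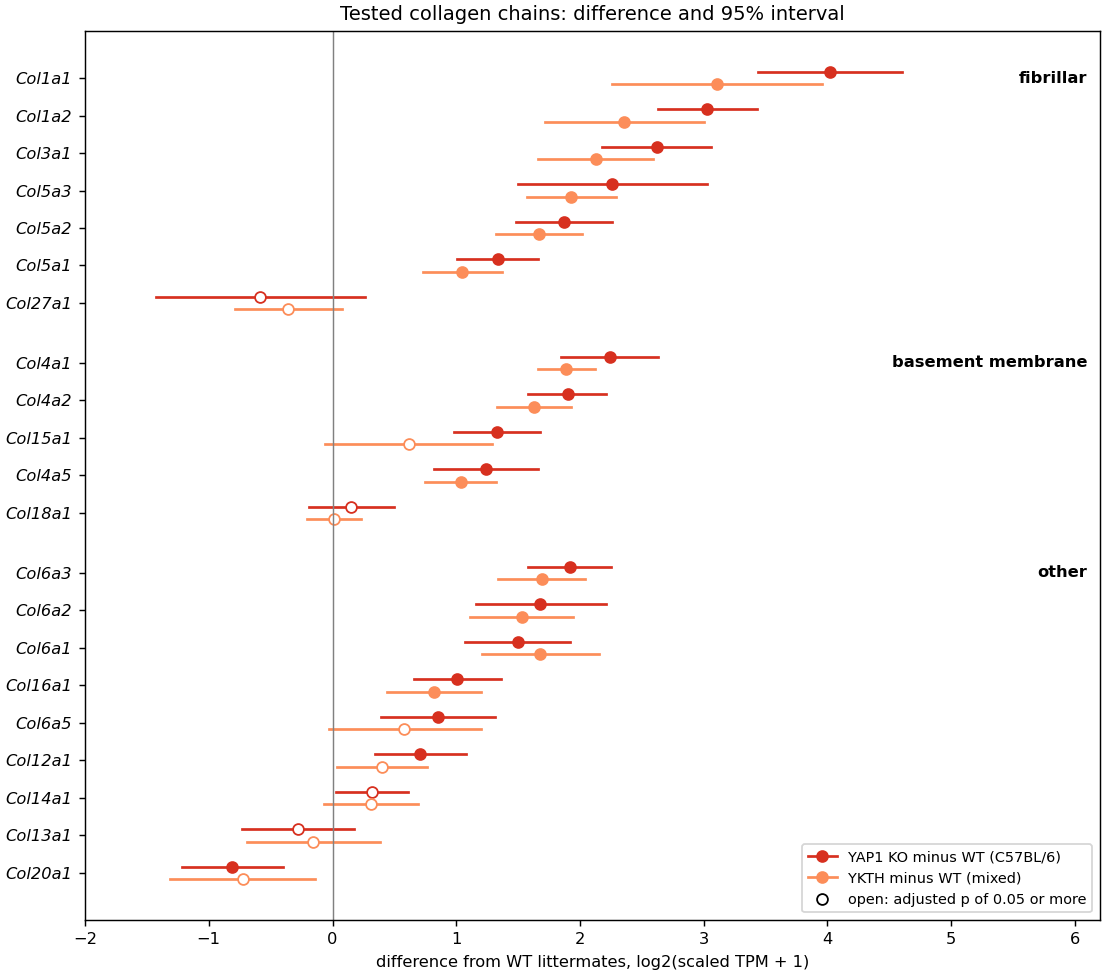
Difference from WT littermates for the 21 tested collagen chains (x axis, log2(scaled TPM + 1); dots with 95% confidence intervals from limma; red, YAP1 KO; orange, YKTH; open dots, adjusted p of 0.05 or more), grouped by class. The fibrillar chains range up to 4.02 in YAP1 KO and 3.11 in YKTH livers (*Col1a1*), *Col18a1* lies at 0.15 and 0.01, and *Col20a1* is the lowest at -0.81 and -0.72.

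Among the fibrillar chains, type I collagen rose most. *Col1a1*, the α1 chain of type I collagen and the main scar protein of the liver (chr11:94936224-94953042 in GRCm38, + strand), measured 2.5, 4.67 and 1.76 TPM in WT (C57BL/6) and 73.1, 86.6 and 67.1 TPM in YAP1 KO livers. Among the mixed-background mice it measured 5, 1.08 and 2.69 TPM in WT and 48.1, 25.9 and 38.2 TPM in YKTH livers. In each comparison every liver of the model lay far above every littermate, and the lowest YAP1 KO liver lay above the highest YKTH liver. The rise was 4.02 ± 0.25 SE in YAP1 KO (adjusted p = 2.47e-05) and 3.11 ± 0.36 SE in YKTH livers (adjusted p = 0.000605), 25.4-fold and 12.8-fold in mean TPM.

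*Col1a2* (chr6:4504814-4541544, + strand), the α2 chain of the same trimer, went from 4.12 to 7.08 TPM in WT (C57BL/6) livers up to 57.9 to 72 TPM in YAP1 KO livers. In the second litter group it went from 2.91 to 6.96 TPM up to 25.7 to 45.2 TPM in YKTH livers. The differences were 3.03 ± 0.17 SE (adjusted p = 1.63e-05) and 2.36 ± 0.28 SE (adjusted p = 0.000594), smaller than those of *Col1a1* in both models. The ratio of *Col1a1* to *Col1a2* within a liver accordingly differed between groups. It lay between 0.427 and 0.66 in WT (C57BL/6) and between 0.372 and 0.718 in WT (mixed) livers. In YAP1 KO livers it was 1.07 to 1.2 and in YKTH livers 0.981 to 1.06, above every WT liver. Type I collagen holds more α1 than α2 chains, and the transcript ratio did not exceed 1.2 in any of the 12 livers.

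*Col3a1* (chr1:45311538-45349706, + strand), whose product forms the fine reticular fibres of the liver, was the most abundant fibrillar chain, with a mean of 38.1 TPM over the 12 livers. It was 10.9, 11.9 and 7.49 TPM in WT (C57BL/6), 97.7, 92.5 and 65.4 TPM in YAP1 KO, 10.8, 5.96 and 8.24 TPM in WT (mixed) and 58.6, 38.1 and 49.5 TPM in YKTH livers. The groups did not overlap in either comparison, and the differences were 2.62 ± 0.19 SE (adjusted p = 5.59e-05) and 2.13 ± 0.2 SE (adjusted p = 0.000228). In WT livers *Col3a1* exceeded *Col1a1*, at a ratio of *Col1a1* to *Col3a1* of 0.182 to 0.465. In YAP1 KO livers the ratio was 0.748 to 1.03 and in YKTH livers 0.679 to 0.82, so the 2 chains came nearer to each other.

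The neighbour of *Col3a1* on chromosome 1 is *Col5a2*, a chain of type V collagen, which starts fibrils of types I and III and sets their width. The genes lie tail to tail with 24614 bases between them. *Col5a2* rose by 1.87 ± 0.17 SE in YAP1 KO and 1.67 ± 0.15 SE in YKTH livers (adjusted p = 0.000145 and 0.000198), 6.91-fold and 6.46-fold in mean TPM. Its ratio to *Col3a1* within a liver ran from 0.101 to 0.159 and overlapped between all 4 groups. *Col5a1*, the other common type V chain, rose less, by 1.34 ± 0.14 SE and 1.05 ± 0.14 SE (adjusted p = 0.000307 and 0.00108).

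*Col5a3* (chr9:20770050-20815067, - strand), the rarer α3 chain of type V, differed in its level between the 2 litter groups. It was 2.26, 0.468 and 0.481 TPM in WT (C57BL/6) livers and 4.65, 4.1 and 3.7 TPM in WT (mixed) livers, and 12.6, 9.8 and 7.97 TPM in YAP1 KO against 19.3, 27.3 and 22.5 TPM in YKTH livers. Every WT (mixed) liver lay above every WT (C57BL/6) liver, and every YKTH liver above every YAP1 KO liver. YKTH and YAP1 KO mice differ in *Wwtr1* as well as in background, and the 2 cannot be told apart here. Against littermates the rise was 2.26 ± 0.33 SE in YAP1 KO (adjusted p = 0.00154) and 1.93 ± 0.15 SE in YKTH livers (adjusted p = 0.00011). Between the WT groups the difference was 1.38 ± 0.3 SE, which did not pass the threshold (adjusted p = 0.391, unadjusted p = 0.00205). Without the WT (C57BL/6) liver LM75, which held the 2.26 TPM, it was 1.78 with an adjusted p of 0.00451. The ratio of *Col5a3* to *Col5a1* was 0.189 to 0.91 in WT (C57BL/6), 0.99 to 1.29 in YAP1 KO, 1.85 to 2.1 in WT (mixed) and 3.02 to 4.36 in YKTH livers, 4 ranges that do not overlap.

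*Col27a1*, a fibrillar chain known from cartilage, was the exception in its class, with no rise in either model. It was 2.73, 9.71 and 9.56 TPM in WT (C57BL/6) and 4.62 to 5.72 TPM in YAP1 KO livers, and 3.66 to 5.8 TPM in WT (mixed) and 4.12 to 4.99 TPM in YKTH livers. The differences were -0.59 ± 0.37 SE and -0.36 ± 0.19 SE (adjusted p = 0.244 and 0.169), and 1 WT liver decided the call in each comparison. Without LM75 the first was -1.09 with an adjusted p of 0.00105, and without the WT (mixed) liver LM226 the second was -0.57 with an adjusted p of 0.0223. Its longest glycine run, of 217 repeats, is shorter than those of the 6 fibrillar chains that rose, which hold 337 to 344. Outside the class, *Col4a1* and *Col4a2* rose with runs of 40 and 66. A link between run length and level was not tested.

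**Figure D2:**
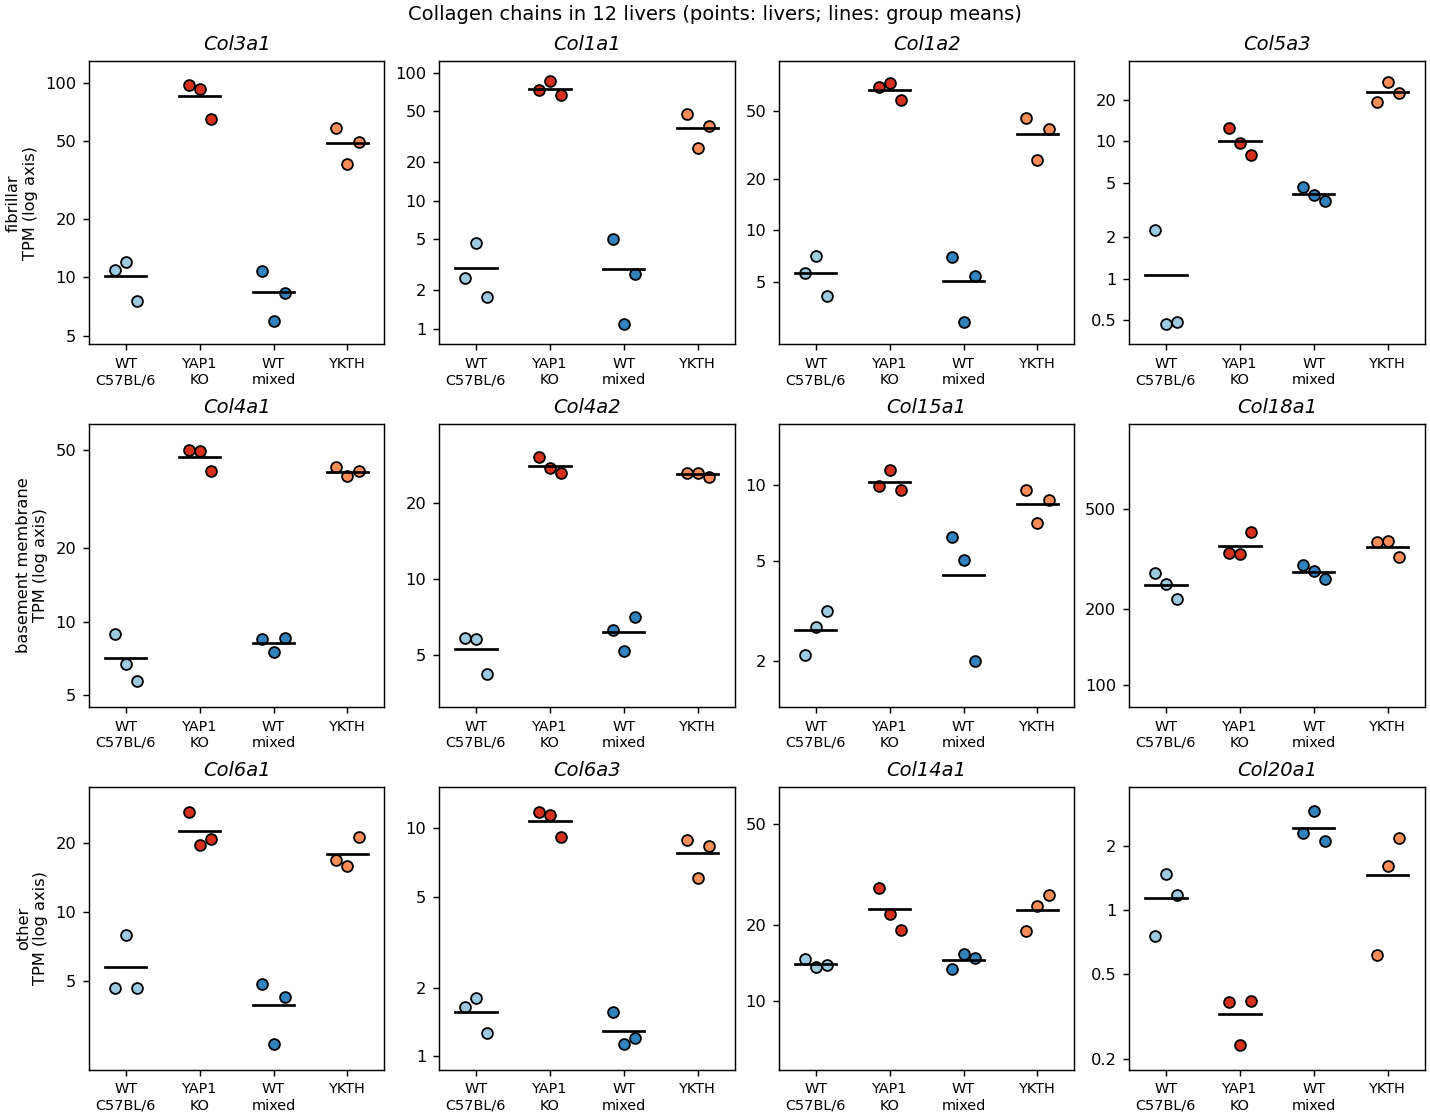
TPM (log axis) of 12 collagen chains in each of the 12 livers (points) with the group means (lines), in rows for the fibrillar, basement membrane and other classes. *Col1a1* lies between 67.1 and 86.6 TPM in YAP1 KO livers and at or under 5 TPM in all 6 WT livers, *Col18a1* lies between 219 and 405 TPM throughout, and *Col20a1* is lowest in YAP1 KO livers.

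Of the basement membrane chains, *Col4a1* and *Col4a2* form the network found under most epithelia and vessels, and their genes start back to back on chromosome 8, with starts 21 bases apart and an overlap of 22 bases. *Col4a1* (chr8:11198423-11312826, - strand) was 8.92, 6.7 and 5.74 TPM in WT (C57BL/6), 50, 49.8 and 41 TPM in YAP1 KO, 8.5, 7.48 and 8.53 TPM in WT (mixed) and 42.6, 39.1 and 41 TPM in YKTH livers. *Col4a2* (chr8:11312805-11449287, + strand) was 4.21 to 5.86 TPM, 26.3 to 30.6 TPM, 5.18 to 7.1 TPM and 25.4 to 26.4 TPM in the same order. Neither chain overlapped between a model and its littermates. *Col4a1* rose by 2.24 ± 0.17 SE and 1.89 ± 0.1 SE (adjusted p = 6.38e-05 and 1.73e-05) and *Col4a2* by 1.9 ± 0.14 SE and 1.63 ± 0.13 SE (adjusted p = 5.28e-05 and 0.000108). The ratio of *Col4a1* to *Col4a2* moved little beside that of the type I chains: it was 1.16 to 1.52 and 1.2 to 1.44 in the WT groups, 1.56 to 1.81 in YAP1 KO and 1.48 to 1.61 in YKTH livers.

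The other 2 head-to-head pairs of type IV genes stayed low. *Col4a5* on the X chromosome rose by 1.24 ± 0.18 SE and 1.04 ± 0.12 SE (adjusted p = 0.00157 and 0.000642), from 0.26 to 0.786 TPM up to 2.76 to 3.75 TPM and from 0.822 to 1.02 TPM up to 3.49 to 3.63 TPM. With 0.1 in place of 1 added before the log the first was 2.11. *Col4a5* met the filter only with livers of the models, so its rise is not independent of the filter. Its partner *Col4a6*, which starts 1309 bases away, did not exceed 0.194 TPM in any liver. *Col4a3* and *Col4a4*, best known from the kidney glomerulus, start 72 bases apart and stayed under the filter, with highest values of 0.803 and 0.384 TPM.

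*Col15a1* and *Col18a1* encode multiplexins of the basement membrane zone. *Col15a1* rose in YAP1 KO livers, from 2.12 to 3.15 TPM up to 9.5 to 11.4 TPM (1.33 ± 0.15 SE, adjusted p = 0.000474). In YKTH livers it was 7.04 to 9.5 TPM against 6.18, 5.01 and 2.01 TPM in WT (mixed) livers, a difference of 0.62 ± 0.29 SE that did not pass the threshold (adjusted p = 0.131); with no scaling it was 0.88 (adjusted p = 0.0472). *Col18a1* (chr10:77052178-77166548, - strand) was the most abundant collagen gene in all 12 livers. It was 279, 252 and 219 TPM in WT (C57BL/6), 333, 331 and 405 TPM in YAP1 KO, 299, 282 and 262 TPM in WT (mixed) and 368, 371 and 322 TPM in YKTH livers. Its TPM did not overlap between a model and its littermates, but after scaling the differences were 0.15 ± 0.15 SE and 0.01 ± 0.09 SE (adjusted p = 0.451 and 0.95). With no scaling they were 0.51 and 0.33 (adjusted p = 0.0113 and 0.0323) and with quantile normalization 0.5 and 0.4 (adjusted p = 0.0186 and 0.0176), so the call for *Col18a1* turned on the scaling. Summed TPM of 8 hepatocyte markers were 102000 to 114000 in WT (C57BL/6) and 78000 to 89000 in YAP1 KO livers, and 94600 to 116000 in WT (mixed) and 75900 to 91700 in YKTH livers. *Alb* made up most of this sum, at 69900 to 83100 TPM in WT (C57BL/6) and 55900 to 62800 TPM in YAP1 KO livers. In each model 3 of the 8 fell and none rose (limma, adjusted p under 0.05). These were *Alb*, *Ttr* and *Cyp2e1* in YAP1 KO and *Ttr*, *Tat* and *Cyp2e1* in YKTH livers, and the other markers did not pass the threshold. Of all genes 17.3% fell and 18.7% rose in YAP1 KO livers, and 18.4% fell and 19.2% rose in YKTH livers. The part of hepatocytes in these values was not tested.

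Among the other collagens, the chains of type VI moved together. *Col6a1*, *Col6a2* and *Col6a3* encode the α1, α2 and α3 chains of 1 trimer; the first 2 lie on chromosome 10 in the same orientation with 85161 bases between them and the third on chromosome 1. *Col6a1* rose by 1.5 ± 0.18 SE and 1.68 ± 0.2 SE (adjusted p = 0.000652 and 0.000669), *Col6a2* by 1.68 ± 0.23 SE and 1.53 ± 0.18 SE (adjusted p = 0.00102 and 0.000588) and *Col6a3* by 1.92 ± 0.14 SE and 1.69 ± 0.15 SE (adjusted p = 6.08e-05 and 0.000185). In TPM, *Col6a3* went from 1.64, 1.8 and 1.27 in WT (C57BL/6) up to 11.8, 11.4 and 9.14 in YAP1 KO livers, and from 1.56, 1.13 and 1.2 in WT (mixed) up to 8.9, 6.06 and 8.33 in YKTH livers. *Col6a3* was the rarest of the 3 in WT livers, at a ratio to *Col6a1* of 0.226 to 0.427, and the ratio was 0.431 to 0.581 in YAP1 KO and 0.384 to 0.527 in YKTH livers. *Col6a5*, an alternative to the α3 chain, was at most 0.301 TPM in WT livers. It rose in YAP1 KO livers (1.36, 1.44 and 0.594 TPM; 0.85 ± 0.2 SE, adjusted p = 0.0124; 2.45 with 0.1 added before the log), and the YKTH livers were spread from 0.243 to 1.84 TPM (0.58 ± 0.27 SE, adjusted p = 0.12). Without the YKTH liver LM250, the lowest, the latter was 0.84 with an adjusted p of 0.0273.

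The fibril-associated chains did not move in 1 direction. *Col14a1*, which decorates type I fibrils and was the most abundant of the other collagens, was 13.6 to 14.6 TPM in WT (C57BL/6) and 19.1 to 28 TPM in YAP1 KO livers, and 13.4 to 15.3 TPM in WT (mixed) and 18.9 to 26.1 TPM in YKTH livers. The differences were 0.32 ± 0.13 SE and 0.31 ± 0.16 SE (adjusted p = 0.083 and 0.179). They passed the threshold without scaling (0.66 and 0.61, adjusted p = 0.00765 and 0.00926), and also without the YAP1 KO liver LM191 (0.42, adjusted p = 0.0463) and without the YKTH liver LM225 (0.46, adjusted p = 0.0323). *Col16a1* rose by 1.01 ± 0.15 SE and 0.82 ± 0.16 SE (adjusted p = 0.0017 and 0.00649). *Col12a1* rose in YAP1 KO livers, from 0.291 to 0.489 TPM up to 1.44 to 1.79 TPM (0.71 ± 0.16 SE, adjusted p = 0.0101; 1.42 with 0.1 added before the log), and stood at 1.03 to 1.07 TPM in YKTH livers against 0.202 to 0.612 TPM (0.4 ± 0.16 SE, adjusted p = 0.0788; 0.53 with no scaling, adjusted p = 0.0265, and 0.4 with no filter on low values, adjusted p = 0.049).

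*Col20a1*, a little studied fibril-associated chain, was the only tested collagen chain that fell in YAP1 KO livers. It was 0.754, 1.48 and 1.17 TPM in WT (C57BL/6) and 0.371, 0.232 and 0.373 TPM in YAP1 KO livers, with every YAP1 KO liver below every littermate. In WT (mixed) livers it was 2.3, 2.91 and 2.1 TPM and in YKTH livers 0.615, 1.6 and 2.18 TPM, and these groups overlapped. The differences were -0.81 ± 0.18 SE (adjusted p = 0.00926) and -0.72 ± 0.25 SE (adjusted p = 0.0557), or -1.81 and -1.14 with 0.1 added before the log. The second passed the threshold without the YKTH liver LM251, the highest of its group (-0.93, adjusted p = 0.0305), with quantile normalization (-0.93, adjusted p = 0.0239), with robust shrinkage (adjusted p = 0.0493) and in 1 fit of all 12 libraries (adjusted p = 0.025). An exon of another annotated gene on the same strand overlaps *Col20a1*, so its reads could be shared. *Col13a1*, a transmembrane collagen, was between 1.92 and 5.68 TPM in the 12 livers, and its differences of -0.28 ± 0.2 SE and -0.16 ± 0.23 SE did not pass the threshold (adjusted p = 0.299 and 0.625).

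Without *Col18a1*, the summed TPM of all collagen chains was 68.4 to 90.1 in WT (C57BL/6) and 71.5 to 88.6 in WT (mixed) livers, against 371 to 465 in YAP1 KO and 278 to 337 in YKTH livers. The make-up of that sum moved towards fibrillar chains. They held 37.5% to 42.7% of it in WT (C57BL/6) and 59.4% to 62.3% in YAP1 KO livers, and 31.5% to 39.9% in WT (mixed) and 48.4% to 55.9% in YKTH livers. The shares of type IV (15.5% to 25% over the 12 livers) and type VI (7.21% to 15.1%) moved less. *Col18a1* itself was 73.6% to 79.8% of all collagen TPM in WT livers, 41.7% to 52.2% in YAP1 KO and 49.9% to 57.1% in YKTH livers.

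**Figure D3:**
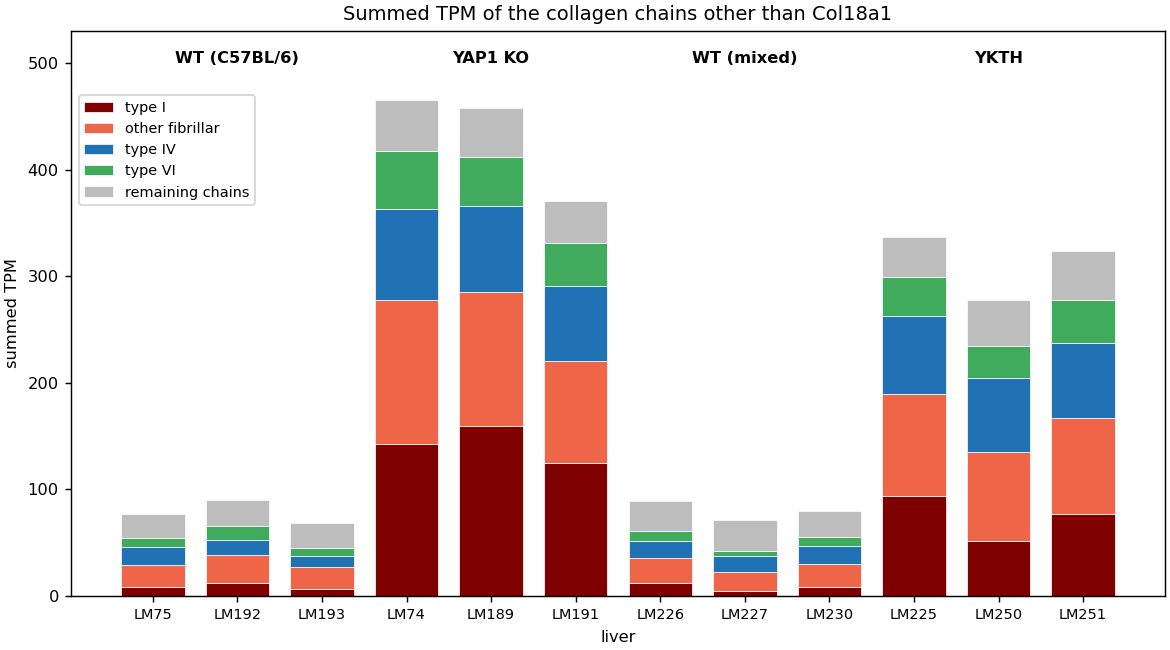
Summed TPM of the collagen chains other than *Col18a1* in each liver (bars, labelled by liver), split into type I, the other fibrillar chains, type IV, type VI and the remaining chains. The WT bars end between 68.4 and 90.1 TPM, the YAP1 KO bars between 371 and 465 TPM and the YKTH bars between 278 and 337 TPM.

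To set fibrillar against basement membrane collagen without the scaling, the summed TPM of fibrillar chains was divided by that of type IV chains within each liver. On the log2 scale the ratio was 1.72 ± 0.09 (SD, n = 3) in YAP1 KO and 1.19 ± 0.36 in WT (C57BL/6) livers, and 1.19 ± 0.21 in YKTH and 0.85 ± 0.24 in WT (mixed) livers. The difference was 0.53 in the first and 0.34 in the second comparison, larger than the spread between livers (pooled SD 0.27 and 0.23). Without the WT (C57BL/6) liver LM75 the first was 0.32. In linear terms the YAP1 KO livers (3.11 to 3.53) lay above all WT (C57BL/6) livers (1.71 to 2.76), while the YKTH livers (1.94 to 2.57) overlapped the WT (mixed) livers (1.56 to 2.16). So both kinds of collagen were higher. The fibrillar sum was 8.35-fold and the type IV sum 5.74-fold in mean TPM in YAP1 KO livers, and 5.62-fold and 4.46-fold in YKTH livers. These folds are of TPM before scaling and include the shift that scaling removes. With all basement membrane chains in place of type IV the difference was 2.32 and 1.98, because *Col18a1* then made up most of the denominator.

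**Figure D4:**
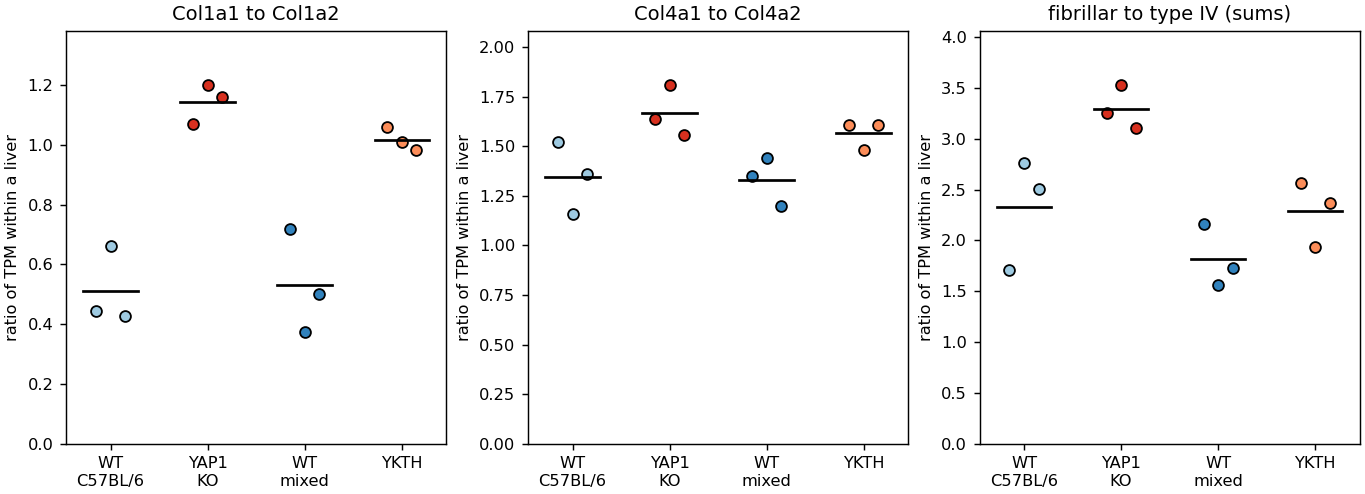
Ratios of TPM within each of the 12 livers (points) with group means (lines), for *Col1a1* to *Col1a2*, *Col4a1* to *Col4a2* and the summed fibrillar to the summed type IV chains. The first ratio is at most 0.718 in WT livers and at least 0.981 in livers of the models, and the third overlaps between YKTH (1.94 to 2.57) and WT (mixed) livers (1.56 to 2.16).

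Whether the models differ from each other was tested as the difference of the 2 differences over 12 livers. None of the 21 chains passed (0 called by limma, and 0 with an unadjusted p under 0.05), where 0.0247% of all genes were called higher and 0.0329% lower and 4.56% had an unadjusted p under 0.05. The largest estimates were for *Col1a1*, 0.91 higher in YAP1 KO livers with a 95% confidence interval from -0.16 to 1.98, *Col15a1*, 0.71 (-0.06 to 1.48), and *Col1a2*, 0.66 (-0.11 to 1.44), all at an adjusted p of 0.998. These intervals leave room for differences of up to 1.98 on the log2 scale, so the chains *Col12a1*, *Col15a1* and *Col6a5*, which passed the threshold in YAP1 KO but not in YKTH livers, were not shown to differ between the models.

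The WT groups, which differ in background and litters, gave the size of the differences without a knockout. None of the 21 chains differed between them by limma (0 called), and 2 did at an unadjusted p under 0.05, against 5.82% of all genes, while 0.14% of all genes were called higher and 0.0329% lower in WT (mixed) livers. The 2 were *Col5a3*, given above, and *Col20a1* (0.66 ± 0.16 SE, adjusted p = 0.473, unadjusted p = 0.0041), both higher in WT (mixed) livers. The other 19 differences ran from -0.5 (*Col6a1*) to 0.43 (*Col15a1*).

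Livers of a group also differed from each other across many chains. LM191 was the lowest of the 3 YAP1 KO livers for 15 of the 21 chains, LM193 the lowest of the WT (C57BL/6) livers for 13 and LM227 the lowest of the WT (mixed) livers for 13. These 3 livers also had the fewest genes above 0 in their groups, with 14765, 14540 and 14442, and the part of this in the collagen values was not tested. Among the YKTH livers LM250 was the lowest for 9 chains and LM225 for 8.

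A collagen chain must be modified, folded, secreted, trimmed and crosslinked before it joins the matrix, and a list of 49 genes for these steps, for breakdown and for collagen receptors was followed beside the chains, with 37 tested. Of these, *Plod2*, *Lox*, *Mmp13*, *Mrc2* and *Lair1* were under 1 TPM in every WT liver and, like *Col12a1* and *Col6a5*, passed the filter only through livers of the models, so that their rise was built into it. At least *P3h2*, *Adamts2*, *Adamts14* and *Loxl4* also met the limit of 3 livers only with livers of the models, like *Col4a5*. Their rises, counted below, are not independent of the filter. Over all tested genes 18.7% rose and 17.3% fell in YAP1 KO livers, and 19.2% rose and 18.4% fell in YKTH livers. Of the 17 tested genes of hydroxylation, glycosylation and folding, 7 rose in YAP1 KO livers (*Serpinh1*, the collagen chaperone HSP47, *Fkbp10*, *Crtap*, *Plod2*, *P3h2*, *P3h3* and *Colgalt1*) and 8 in YKTH livers, the same with *P3h1*, and none fell by limma at an adjusted p under 0.05. The most abundant of them, which also serve other proteins, did not pass the threshold: *P4hb*, the β subunit of prolyl 4-hydroxylase, at a mean of 1030 TPM (0.24 ± 0.12 SE and 0.09 ± 0.13 SE, adjusted p = 0.163 and 0.598), *Ppib* at 434 TPM (-0.09 ± 0.11 SE and 0.15 ± 0.15 SE, adjusted p = 0.561 and 0.465) and *Mia3*, needed for the export of procollagen, at 63.4 TPM (-0.14 ± 0.13 SE and -0.11 ± 0.1 SE, adjusted p = 0.405 and 0.411). The median difference of this group was 0.33 and 0.34, or 0.29 and 0.32 without *Plod2*.

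The shares of all genes that rose, 18.7% in YAP1 KO and 19.2% in YKTH livers, also stand beside the counts that follow. Of 5 tested genes listed for propeptide cleavage, *Adamts2* and *Pcolce* rose in both models, *Adamts14* in YAP1 KO and *Pcolce2* in YKTH livers. Of these, *Adamts2* and *Adamts14* met the filter only with livers of the models. *Bmp1* passed the threshold as lower in YAP1 KO livers (-0.4 ± 0.12 SE, adjusted p = 0.0282), although its TPM before scaling overlapped (33.8 to 42.5 against 37.7 to 40.6 TPM). Of the 5 lysyl oxidases, which crosslink collagen, 4 rose in YAP1 KO livers and all 5 in YKTH livers, with medians of 1.43 and 1.48. Without *Lox* the counts were 3 of 4 and 4 of 4. Both medians are the values of *Loxl4*, which met the limit of 3 livers only with livers of the models and stays in these counts. Of the genes of breakdown and uptake, *Mmp8* and *Mmp9* were not tested, and the 5 tested rose in both models, 3 of them with at least 1 WT liver at or above 1 TPM. The 5 were *Mmp2*, a gelatinase (2.36 ± 0.14 SE and 1.91 ± 0.2 SE, adjusted p = 1.65e-05 and 0.000399), *Ctsk*, a collagen-cutting cathepsin (2.26 ± 0.17 SE and 1.23 ± 0.26 SE, adjusted p = 5.64e-05 and 0.00765), *Mmp14*, and, with the rise built into the filter, *Mmp13* and *Mrc2*, a receptor that takes up collagen (2.06 ± 0.16 SE and 1.71 ± 0.19 SE, adjusted p = 6.97e-05 and 0.000504). Of 5 tested receptors, *Ddr1*, a receptor tyrosine kinase for collagen, rose from 0.804 to 1.22 TPM in WT livers up to 13.6 to 20.7 TPM in livers of the models (2.76 ± 0.15 SE and 2.95 ± 0.15 SE, adjusted p = 1.02e-05 and 1.3e-05). *Lair1*, one of those fixed by the filter, rose in both models and *Itgb1*, at a mean of 108 TPM, in YAP1 KO livers (0.3 ± 0.09 SE, adjusted p = 0.0324).

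Markers of liver cell types were counted beside all tested genes. Of these genes 18.7% rose and 17.3% fell in YAP1 KO livers, and 19.2% rose and 18.4% fell in YKTH livers. Of 10 tested genes of fibroblasts and myofibroblasts, 6 rose and none fell in each model, and the summed TPM of the 11 listed was 134 to 159 in WT (C57BL/6), 263 to 359 in YAP1 KO, 113 to 143 in WT (mixed) and 243 to 342 in YKTH livers; *Gli1* was under 0.1 TPM in every YKTH liver. *Fbln2*, among the 6 in each model, met the limit of 3 livers only with livers of the models. *Acta2*, the actin of activated myofibroblasts, was not called in either model (0.42 ± 0.42 SE and -0.85 ± 0.46 SE, adjusted p = 0.469 and 0.181). Of 10 stellate cell markers, *Pdgfrb* and *Cygb* rose in both models. In YAP1 KO livers 3 fell (*Ecm1*, *Rgs5* and *Lrat*) and in YKTH livers 1 (*Ecm1*). The sum of the 10 ran from 200 to 236 TPM in YAP1 KO against 229 to 259 TPM, and from 154 to 303 TPM in YKTH against 239 to 255 TPM. *Ecm1*, the most abundant of the 10, weighed most in this sum. It was 58.3 to 65.2 TPM in YAP1 KO against 138 to 148 TPM, and 54.1 to 125 TPM in YKTH against 150 to 157 TPM. The sum therefore does not show the direction of the other markers. Of 10 endothelial markers 1 rose and 2 fell in YAP1 KO livers and 2 rose and 2 fell in YKTH livers. The stellate and endothelial counts lie near the shares over all genes. Of 10 macrophage markers 9 rose in each model, with sums of 923 to 1290 TPM in YAP1 KO against 344 to 445 TPM, and 1210 to 1280 TPM in YKTH against 292 to 568 TPM. Of 6 tested bile duct markers 3 rose in each model (*Tff3*, *Spp1* and *Sox9*) and 1 fell in YKTH livers (*Epcam*). The rest did not pass the threshold, and *Tff3* met the limit of 3 livers only with livers of the models. *Cftr* was under 0.1 TPM in every YAP1 KO, WT (mixed) and YKTH liver. The part of these cell types in the collagen values was not tested.

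YAP and TAZ act on genes through TEAD factors, so the 250 bases before the annotated starts were searched for the TEAD letters GGAATG on both strands. Of the 21 tested chains 17 had promoters in the RefSeq set for GRCm38, with 19 starts. *Col1a1*, which rose most, *Col5a2*, *Col12a1* and *Col14a1* had none there. The letters were held by 4 of the 19 promoters (1 each of *Col3a1*, *Col6a2*, *Col18a1* and *Col20a1*), among them a chain that did not pass the threshold and the chain that fell, while 12.6% of all 32851 promoters held them. CCAAT was held by 7 of the 19 promoters and by 33.8% of all promoters, and TATAAA by 2 and by 12.4%, both strands counted. The AP-1 letters TGANTCA were held by 1 of the 19 promoters, that of *Col6a1*, and by 6.75% of all promoters. The promoter of *Col3a1*, the most abundant fibrillar chain, is shown for bases 250 to 1 before the start on the coding strand (RefSeq, GRCm38, + strand), with capitals for the reverse of GGAATG and for TATAAA, which do not overlap.
Col3a1 promoter, chr1:45311288-45311537, + strand: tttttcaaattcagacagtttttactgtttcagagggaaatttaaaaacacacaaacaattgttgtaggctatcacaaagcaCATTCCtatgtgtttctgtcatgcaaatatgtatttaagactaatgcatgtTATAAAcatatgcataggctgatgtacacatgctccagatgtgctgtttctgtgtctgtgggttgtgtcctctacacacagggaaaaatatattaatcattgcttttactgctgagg
These matches describe letters in a window only.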

How the data were processed

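RNA of whole liver was sequenced in 12 mice by the authors, who mapped the reads to GRCm38 in CLC Genomics Workbench and deposited a TPM value for each gene and mouse, together with fold changes, p-values and false discovery rates of their own comparisons made with edgeR, which were not used. Every TPM column matched a sample (0 unmatched), and 0 pairs of libraries were identical. TPM sum to 1000000 in every library and keep no depth, so the spread between 3 livers is the only error, and no test on counts was run. Strandedness is not given in the sources used here, so reads of genes that overlap on opposite strands (*Col4a1* and *Col4a2* at their starts, and *Col4a2*, *Col5a1* and *Col15a1* with noncoding genes on the other strand) may not be told apart.

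Within the libraries of a fit, a trimmed mean of log ratios to a reference library set the scaling (trimming, at either end, 30% by log ratio and 5% by level), then 1 was added and log2 taken. Genes with 1 TPM in at least 3 of 12 livers entered limma (version 3.58.1, R version 4.3.3; lmFit and eBayes with trend; adjusted p under 0.05). The steps were also run on simulated data with known changes, as many up as down. These do not imitate the shift removed by scaling and so do not test the calls that turn on it. For single values outside the fits an exact permutation test of 3 against 3 livers cannot go below 0.1, so none is printed. Ratios and sums within a liver are descriptions. Alternatives were another pseudocount, filters, scalings, robust shrinkage, a stricter threshold, 1 fit of all libraries and each liver left out in turn. The members, classes and gene lists were chosen with earlier results of these data known. Named were the 4 most abundant chains of each class, the 3 largest rises and falls past the threshold per class and model, chains past it between the WT groups or the models or with opposite signs, low chains that pass the filter through the models alone, chains of type I, type VI and neighbouring genes and, of the collagen pathway list, the 4 most abundant genes and the 3 largest changes. Other pathway and marker genes are listed as members of their counts. *Col5a1*, *Col13a1*, *Col16a1*, *Col27a1*, *Acta2* and the values of *Ecm1* and *Alb* were added after their values were seen. Exons came from GENCODE M21 (1 principal transcript per gene) and promoters from RefSeq. All 44 chains had the same start and end in GENCODE M21 as in the deposited tables. No protein sequences were used here.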

Additional observations from a re-analysis of the deposited data

How the results depend on the processing

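The 17 chains called in YAP1 KO livers and the 13 in YKTH livers came to 12 to 21 and 11 to 17 over all alternatives. Each main call was kept wherever its chain was still tested, except that *Col12a1* and *Col6a5* in YAP1 KO livers were lost at an adjusted p under 0.01. Leaving out 1 liver gave 17 to 18 and 13 to 14 calls, 0 to 1 between the WT groups (1 without LM75, *Col5a3*) and 0 between the models. Without scaling, 84% of all calls in YAP1 KO and 82.4% in YKTH livers were higher, against 51.9% and 51.1% with it. For the collagen chains this share was 94.7% against 94.1%, and 100% in both. The fibrillar to type IV difference was 0.32 to 0.67 in YAP1 KO and 0.24 to 0.47 in YKTH livers with 1 liver left out, 0.3 and 0.18 as means of log2(TPM + 1), and 2.32 and 1.98 with all basement membrane chains. Signs turned only for differences that had not passed the threshold. In YKTH livers these were *Col13a1* without scaling (0.1) and *Col18a1* with 1 liver left out (-0.04 to 0.04). Between the WT groups they were, with 1 liver left out, *Col1a1* (-0.46 to 0.25), *Col1a2* (-0.39 to 0.06), *Col6a2* (-0.41 to 0.02), *Col16a1* (-0.19 to 0.01), *Col12a1* (-0.08 to 0.11) and *Col14a1* (-0.06 to 0.08), the last 2 also without scaling (0.02 and 0.04) and *Col12a1* with quantile normalization (0). Between the models they were, with 1 liver left out, *Col6a1* (-0.3 to 0.01), *Col6a2* (-0.04 to 0.41), *Col13a1* (-0.31 to 0.1), *Col14a1* (-0.15 to 0.13, and -0.02 with quantile normalization), *Col20a1* (-0.38 to 0.11) and *Col27a1* (-0.74 to 0.01). The cause was not tested. No paired analysis was possible because the labels do not tie mice to litters and the groups share no replicate numbers.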

Other observations

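With no filter on low values, chains that reached at most 1.35 TPM also passed the threshold (limma, adjusted p under 0.05): *Col6a6*, *Col8a1*, *Col25a1* and *Col28a1* in YAP1 KO livers, and *Col23a1* and *Col24a1* in YKTH livers. *Col24a1*, a fibrillar chain, was 0.114 to 0.281 TPM in WT (mixed) livers and 0 to 0.0668 TPM in YKTH livers. *Col25a1*, a transmembrane collagen, was 0.104 to 0.345 TPM in WT (C57BL/6) livers and at most 0.0121 TPM in YAP1 KO livers, and *Col6a6*, an alternative to the α3 chain of type VI collagen, was 0.0622 to 0.148 TPM and 0.29 to 0.791 TPM in the same groups. The reads behind values of this size are unknown.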
